A study of Mus musculus with 34 samples.

Results

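The genes described here are the Wnt ligands, the enzyme and the carrier that make Wnts ready for secretion, the Frizzled receptors with their Lrp5 and Lrp6 co-receptors, and the secreted inhibitors of the Dickkopf and Sfrp families. They were found by symbol, and 41 of the 23366 symbols of the deposited RNA-seq table matched. These were 19 Wnt genes, Porcn and Wls, 10 Fzd genes, Lrp5 and Lrp6, 4 Dkk genes and 4 Sfrp genes. The choice of these genes was made with earlier results of these data known. The Sfrp3 gene is carried in the table as Frzb and was not matched by symbol. RNA-seq compared cells of J1, an mESC line (mouse embryonic stem cells), cultured in serum without LIF (serum/-LIF, 2 libraries) or in the same medium with 0.5 mg/ml purified Royalactin (serum/-LIF + Royalactin, 2 libraries). Royalactin is the major protein of honey bee royal jelly, LIF is the cytokine that keeps these cells undifferentiated in serum, and the comparison asks what Royalactin changes in its absence. All 4 libraries came from this one line on gelatin-coated plates, at passage 40 by the labels where the study's text gives another number, and RNA from cells with LIF was not analysed here. The series text speaks of biological duplicates and does not say how the 2 cultures of a condition were kept apart. The p-values therefore rest on the spread between these libraries, pooled for the larger part across genes (11.5 prior degrees of freedom in limma).

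Wnts are lipid-modified signalling proteins. Porcn, an acyltransferase of the endoplasmic reticulum, attaches the lipid, and Wls, a membrane carrier, takes the modified Wnt to the cell surface. At the receiving cell a Wnt binds a Frizzled receptor, and together with Lrp5 or Lrp6 this spares beta-catenin from destruction, whereas other Wnts and receptors act on cell shape and polarity without it. Dickkopf proteins block Lrp5 and Lrp6, and secreted Frizzled-related proteins carry a Frizzled-like domain that binds Wnts outside the cell. In mESCs, beta-catenin signalling is known to favour self-renewal, and inhibition of Gsk3 in the serum-free 2i medium acts at this step.

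The table gives, for each gene, its reads scaled by the size factor of the library, called normalized counts below. All values (100%) came out as whole reads, to within 0.01 of a read, once the scaling was undone, and read numbers below are these. Reads on genes numbered 14737796 to 17597818 per library, and 7878527 to 15999458 without the ribosomal RNA precursor Rn45s. Rn45s took 46.6% and 21.6% in serum/-LIF replicates 1 and 2. In serum/-LIF + Royalactin replicates 1 and 2 it took 38.4% and 9.08%. Markers of undifferentiated mESCs were present in all libraries. Of 10 such genes, 5 rose with Royalactin past an adjusted p of 0.05 in limma (Sox2, Zfp42, Klf4, Esrrb and Tfcp2l1). None fell past this threshold, which 0.493% of all tested genes passed in either direction. Without overlap of the conditions, 7 of the 10 were higher with Royalactin and 1, Tdgf1, was lower. Of all tested genes, 19.7% were higher and 18.9% lower in this way. Tdgf1 had 10914 and 14553 normalized counts in serum/-LIF and 8696 and 9728 with Royalactin (log2 fold change -0.45, limma adjusted p = 0.730). The summed level of 13 fibroblast markers was 242 to 372 normalized counts in serum/-LIF and 137 to 199 with Royalactin, with Pdgfrb, Postn and S100a4 at 0 in all 4 libraries, and without its most abundant gene, Col5a1, the sums overlapped (101 to 202 and 93.6 to 117). For 11 primitive streak and mesoderm markers the sums were 190 to 357 and 165 to 231 (Tbx6 at 0), and for 11 endoderm markers 2076 to 3410 and 2782 to 3173. For 10 neural markers the sums were 2474 to 2704 and 1672 to 1827, with Neurog2 at 0, but Nes, which fell, carried this difference. Without Nes they overlapped, at 1214 to 1375 and 1338 to 1501. Of the 6 neural markers tested, 3 had a log2 fold change above 0 and 3 below (median 0.22). Nes alone passed the adjusted threshold (log2 fold change -1.95, limma adjusted p = 0.0166). Pax6 and Tubb3 were higher in both Royalactin libraries (limma adjusted p = 0.593 and 0.634), and Sox1, Olig2 and Otx2 overlapped between the conditions. The part of these markers in the results on Wnt genes was not tested. In bulk RNA, fewer cells of one type and less RNA per cell cannot be told apart.

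To show the upstream sequence of the members with the clearest differences, RefSeq promoters were matched by symbol, with 26 of 41 members found. Of the 6 members with an unadjusted p under 0.05 in the comparison of the conditions, Wls, Fzd5 and Wnt3 were among them, and Porcn, Fzd2 and Fzd3 were not. The 250 bases before the annotated start are given 5′ to 3′ in build GRCm38.p6, with GC boxes (GGGCGG on either strand) in capitals.
Wls (chr3:159839400-159839649, plus strand): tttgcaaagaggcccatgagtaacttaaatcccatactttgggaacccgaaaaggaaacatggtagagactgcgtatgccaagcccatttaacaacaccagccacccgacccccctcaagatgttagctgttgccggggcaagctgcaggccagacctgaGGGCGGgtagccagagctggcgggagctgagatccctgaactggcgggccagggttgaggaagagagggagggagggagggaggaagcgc
Fzd5 (chr1:64737751-64738000, minus strand): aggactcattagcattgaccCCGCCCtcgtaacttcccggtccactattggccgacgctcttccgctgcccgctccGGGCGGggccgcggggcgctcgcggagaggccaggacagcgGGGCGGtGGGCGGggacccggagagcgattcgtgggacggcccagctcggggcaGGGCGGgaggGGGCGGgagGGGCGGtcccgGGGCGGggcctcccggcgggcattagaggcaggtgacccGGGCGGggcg
Wnt3 (chr11:103773925-103774174, plus strand): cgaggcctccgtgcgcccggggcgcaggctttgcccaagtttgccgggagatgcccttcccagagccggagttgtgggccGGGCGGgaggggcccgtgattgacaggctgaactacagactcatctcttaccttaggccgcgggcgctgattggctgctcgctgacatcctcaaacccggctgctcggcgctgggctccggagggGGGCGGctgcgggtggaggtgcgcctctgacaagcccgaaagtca
The Fzd5 promoter held 9 GC boxes at a GC content of 76.4%, against 2 boxes and 68% for Wnt3 and 1 box and 58% for Wls. The letters ATCAAAG (TCF/LEF), TTCNNNGAA (STAT), AAGGTCA (ESRRB) and GGGTGTG (KLF), searched on both strands, were absent from these 3 windows. They occur in 3.21%, 7.02%, 4.08% and 6.93% of all 32851 promoters of the same length. Among the 29 promoters of members, ATCAAAG was found upstream of Wnt11 and Wnt5b, TTCNNNGAA upstream of Wnt5b and GGGTGTG upstream of Wnt3a. GGGCGG, added after the sequences were seen, was in 21 of the 29 (72.4%) and in 32.7% of all promoters. Some members have more than one promoter in the table, and a match describes these letters only.

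A member was called detected in a condition when both libraries held more than 3 reads, the limit that a count of 0 allows. By this rule 23 members (56.1%) were detected in serum/-LIF and 26 (63.4%) in serum/-LIF + Royalactin, against 53.3% and 55.5% of all symbols in the table. The Frizzled receptors and Lrp co-receptors were nearly all on, whereas most Wnt ligands were at or near 0. In both conditions 22 members were detected. Another 4 (Wnt5a, Wnt5b, Fzd1 and Dkk3) were detected with Royalactin alone and 1 (Wnt6) in serum/-LIF alone, and 14 in neither. The Royalactin libraries held 10538334 and 15999458 reads outside Rn45s and the serum/-LIF libraries 7878527 and 11559820, and the part of depth in these detections was not tested.

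**Figure D1:**
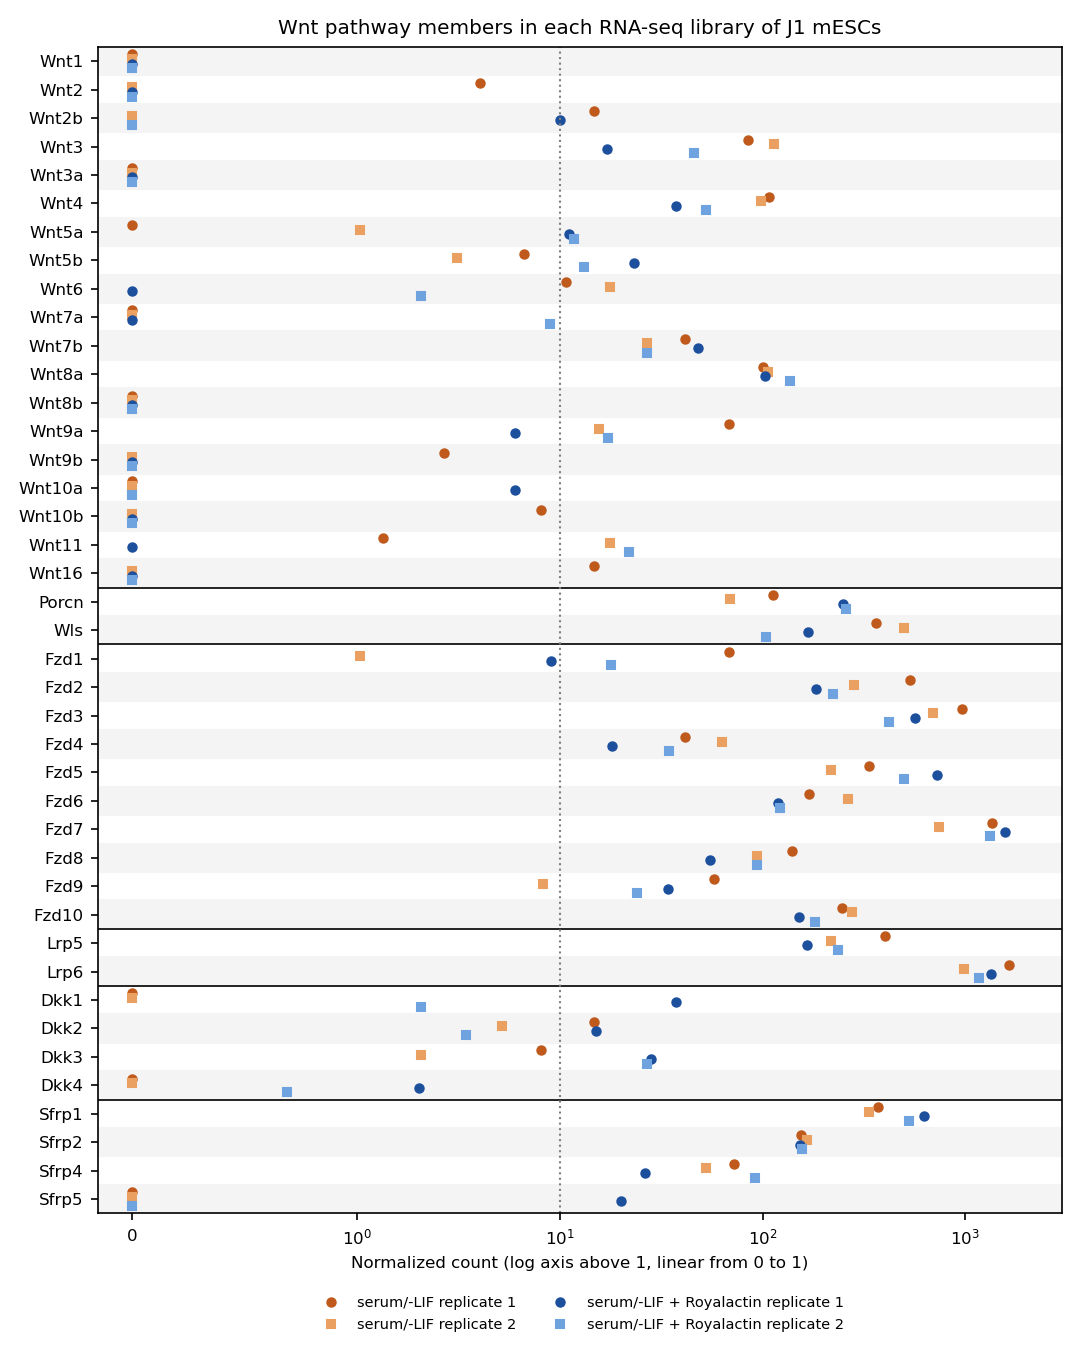
Normalized counts of the 41 members (horizontal axis, log scale above 1 and linear from 0 to 1) in the 2 serum/-LIF libraries (orange) and the 2 serum/-LIF + Royalactin libraries (blue), circles for replicate 1 and squares for replicate 2. Horizontal lines part, from the top, ligands, Porcn and Wls, Frizzled receptors, Lrp co-receptors, Dickkopf inhibitors and Sfrp proteins, and the dotted line marks a value of 10. Fzd7 and Lrp6 have the highest values, while Wnt1, Wnt3a and Wnt8b sit at 0.

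Differences were tested with limma on log2(normalized count + 1) over the 12993 genes with a mean of at least 10, which held 25 of the members, and fold changes are serum/-LIF + Royalactin over serum/-LIF on this scale. None of the 25 passed an adjusted p of 0.05 (limma, Benjamini-Hochberg over all tested genes), where 0.493% of all tested genes did (64 genes). At an unadjusted p under 0.05 there were 6, Wls, Wnt3, Fzd2 and Fzd3 lower and Porcn and Fzd5 higher, which is 24% of the tested members where 9.34% of all tested genes had such a p (4.76% higher and 4.58% lower). This number was 1 without serum/-LIF + Royalactin replicate 1 and 3 without replicate 2, and with any 1 library left out 0 of all tested genes passed the adjusted threshold in limma. The 2 Royalactin libraries lay outside the range of the 2 serum/-LIF libraries for 13 of the 25 members (52%), 8 below and 5 above, and for 38.6% of all tested genes (18.9% below and 19.7% above). The median log2 fold change was -0.32 over these 25 and -0.0076 over all tested genes, and the first of these was -0.10 and -0.55 without serum/-LIF replicate 1 or 2 and -0.13 and -0.53 without serum/-LIF + Royalactin replicate 1 or 2. The fold change was below 0 for 15 members (60%) and for 50.6% of all tested genes. For Fzd1, Fzd9, Lrp6, Sfrp4, Wnt7b, Wnt8a and Wnt11 the sign of the fold change turned when 1 library was left out. Members with low values passed the filter through the condition in which they were higher, so these counts describe the tested members and are not a result on all 41. Because the members were chosen with earlier results of these data known, their percentages against all tested genes are descriptive and carry no test. With 2 libraries in each group an exact permutation test of one value cannot go below p = 0.333.

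**Figure D2:**
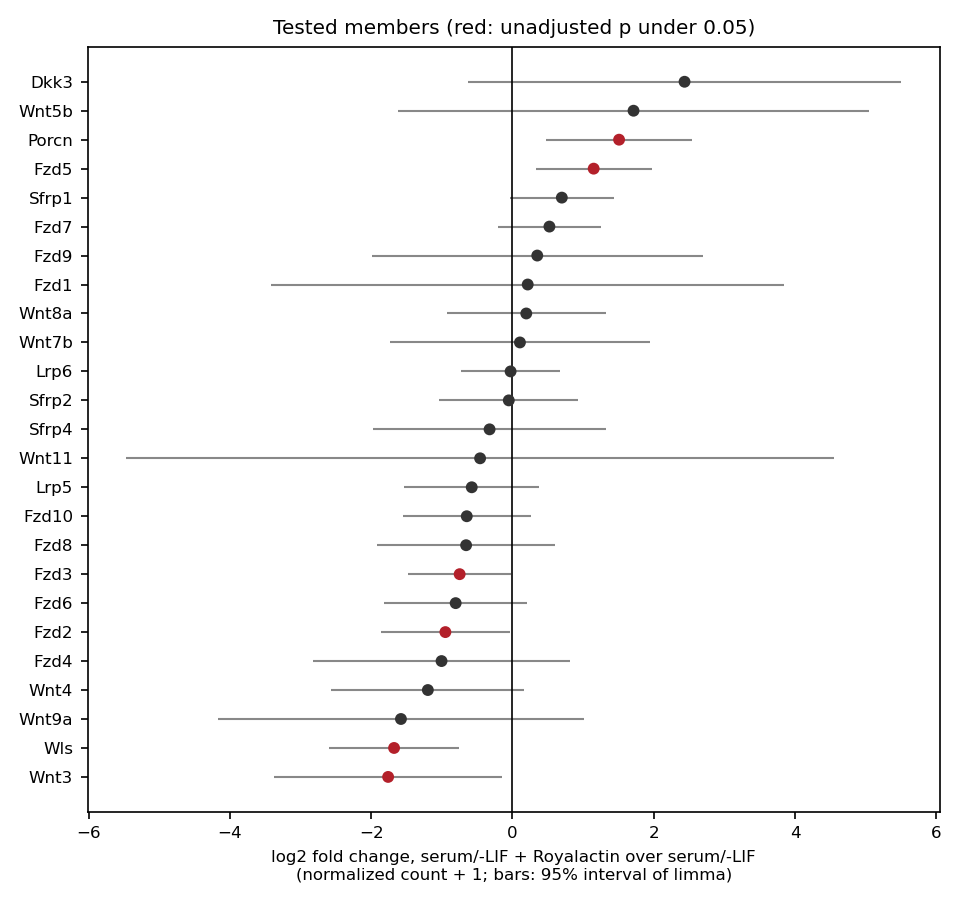
Log2 fold change of each of the 25 tested members (points, serum/-LIF + Royalactin over serum/-LIF, normalized count + 1) with its 95% interval from limma (bars), ordered from lowest to highest. The 6 red points, Wnt3, Wls, Fzd2, Fzd3, Fzd5 and Porcn, have an unadjusted p under 0.05 and intervals that leave out 0.

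The genes for Wnt acylation and Wnt transport had opposite differences. Wls (chromosome 3, 159502701 to 159598797 of mm9) had 364 and 496 normalized counts in serum/-LIF replicates 1 and 2 and 168 and 104 in serum/-LIF + Royalactin replicates 1 and 2. Both Royalactin libraries were below both serum/-LIF libraries. The means were 430 ± 93.4 and 136 ± 45.3 (SD, n = 2), a 3.20-fold lower level with a log2 fold change of -1.68 (95% interval -2.60 to -0.75, limma adjusted p = 0.143, the smallest of the members). After a correction of each library for GC content and exon length, its log2 fold change was -1.58 and it passed the threshold (limma adjusted p = 0.0331, Benjamini-Hochberg), as did 1.97% of all tested genes in that fit.

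Porcn (chromosome X, 7770974 to 7783651) had 112 and 69.3 normalized counts in the serum/-LIF libraries and 248 and 258 in the Royalactin libraries. Here both Royalactin libraries were above the others and close to each other. The means were 90.8 ± 30.4 and 253 ± 6.85 (SD, n = 2), a difference of 1.51 on the log2 scale (95% interval 0.47 to 2.55, limma adjusted p = 0.278). Per kilobase of exon, the ratio of Porcn to Wls within a library, which no scaling between libraries can change, was 0.340 and 0.154 in serum/-LIF and 1.63 and 2.74 with Royalactin. Porcn was thus the lower of the pair in each serum/-LIF library and the higher in each Royalactin library. This ratio and those given below were chosen after the values were seen and carry no test.

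**Figure D3:**
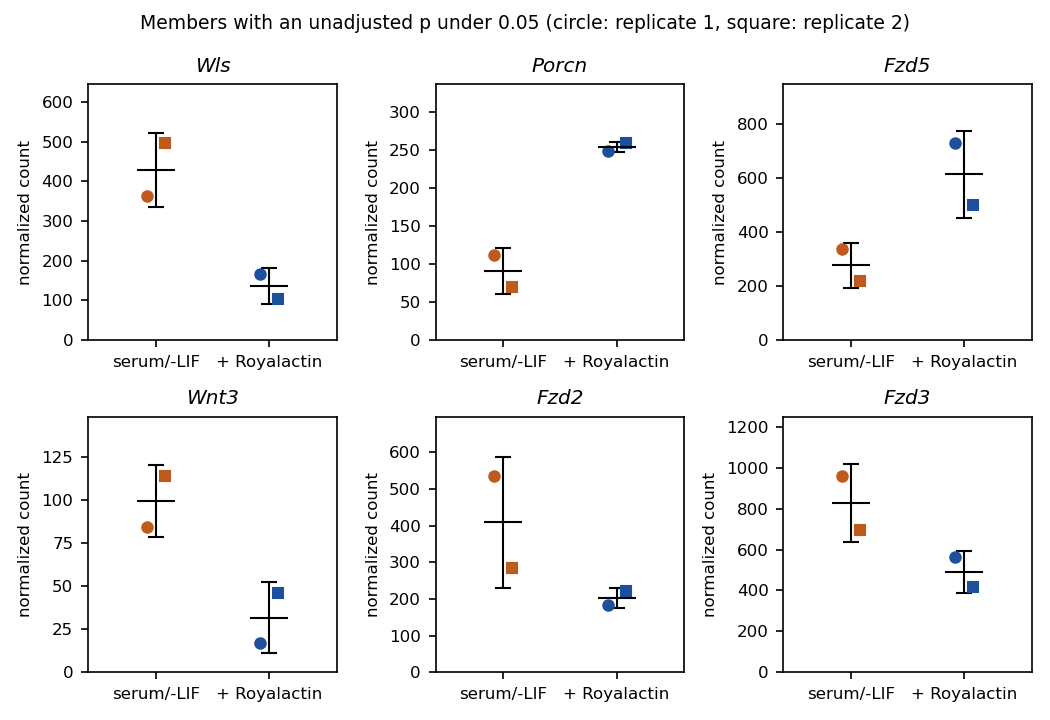
Normalized counts of the 6 members with an unadjusted p under 0.05 in serum/-LIF (orange) and serum/-LIF + Royalactin (blue), circles for replicate 1, squares for replicate 2, with the mean and SD of the 2 libraries in black and vertical axes from 0. Wls, Wnt3, Fzd2 and Fzd3 are lower and Porcn and Fzd5 higher in both Royalactin libraries, and no member passed an adjusted p of 0.05.

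All 10 Frizzled genes, the receptors that bind Wnts through a cysteine-rich extracellular domain, were measured above the filter. None passed the adjusted threshold. In 5 of them (Fzd2, Fzd3, Fzd4, Fzd6 and Fzd10) both Royalactin libraries were below both serum/-LIF libraries, in Fzd5 alone both were above, and in the other 4 the conditions overlapped. Of all tested genes, 18.9% lay below in this way and 19.7% above. Fzd5 (chromosome 1, 64777134 to 64784324) had 336 and 218 normalized counts in serum/-LIF and 726 and 499 with Royalactin. The lowest Royalactin library was above the highest serum/-LIF library. In normalized counts the Royalactin replicates were further apart than the nearest libraries of the 2 conditions. Its means of 277 ± 82.9 and 613 ± 161 (SD, n = 2) gave a log2 fold change of 1.15 (95% interval 0.33 to 1.97, limma adjusted p = 0.306).

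Fzd3 (chromosome 14, 65819863 to 65881300), known for its role in axon guidance and planar polarity, had 960 and 693 normalized counts in serum/-LIF and 563 and 419 with Royalactin. The groups did not overlap, and the log2 fold change was -0.75 (95% interval -1.48 to -0.02, limma adjusted p = 0.521). For Fzd2 (chromosome 11, 102465745 to 102469372) the values were 536 and 284 in serum/-LIF and 183 and 222 with Royalactin. The serum/-LIF replicates were further apart than the nearest libraries of the 2 conditions, and the log2 fold change was -0.95 (95% interval -1.86 to -0.04, limma adjusted p = 0.512). The counts of Fzd2 are uncertain, because 11.2% of its 75-base exon tiles had a second match elsewhere at 2 mismatches or fewer. Fzd10 and Fzd6 had log2 fold changes of -0.65 and -0.80, and Fzd4 had means of 52.3 ± 15.3 and 26.3 ± 11.5 normalized counts (SD, n = 2). The intervals of all 3 took in 0. Of the exon bases of Fzd10, 74.8% are also annotated as a pseudogene entry of the same name, so that counting could have dropped or split its reads.

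Fzd7, the Frizzled with the highest mean level per kilobase in either condition, is known as a receptor used by mESCs. It had 1351 and 740 normalized counts in serum/-LIF and 1565 and 1320 with Royalactin. The libraries overlapped, and the log2 fold change was 0.52 (95% interval -0.21 to 1.25, limma adjusted p = 0.685). Per kilobase of exon, the level of Fzd7 was 218 ± 89.9 in serum/-LIF, next to 196 ± 44.6 for Fzd3, and these did not differ beyond their spread. With Royalactin it was 300.5 ± 36.1 against 116 ± 24.2 for Fzd3 (SD, n = 2). The order below was Fzd2 (113 ± 49.2), Fzd10 (80.4 ± 6.59), Fzd6 (53.0 ± 16.1), Fzd5 (40.1 ± 12.0) and Fzd8 (34.9 ± 9.49) in serum/-LIF, and Fzd5 (88.6 ± 23.2), Fzd2 (55.8 ± 7.52), Fzd10 (51.3 ± 6.49), Fzd6 (29.6 ± 0.665) and Fzd8 (22.4 ± 8.24) with Royalactin. Fzd5 thus stood below Fzd10 in one condition and above it in the other, and neighbours such as Fzd2 and Fzd10 with Royalactin lay within their spread. Fzd1, Fzd4 and Fzd9 had under 15 normalized counts per kilobase on average in either condition.

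As a share of the summed Frizzled level per kilobase within each library, Fzd7 made up 30.7% and 24.6% in serum/-LIF and 44.7% and 42.6% with Royalactin. Fzd5 made up 5.30% and 5.04% in serum/-LIF and 14.4% and 11.2% with Royalactin. The share of Fzd3 was 24.8% and 26.2% in serum/-LIF and 18.3% and 15.3% with Royalactin, and that of Fzd2 was 16.1% and 12.5% against 6.92% and 9.47%. For each of these 4 receptors the 2 conditions did not overlap in share, nor for Fzd8 (4.54% and 4.49% against 2.27% and 4.37%). Those of Fzd1, Fzd4, Fzd6, Fzd9 and Fzd10 overlapped. In level, 38.6% of all tested genes did not overlap. The summed level of all 10 receptors did, at 916 and 627 normalized counts per kilobase in serum/-LIF and 729 and 645 with Royalactin. Shares within a pool are tied to each other, since they add up to the whole.

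**Figure D4:**
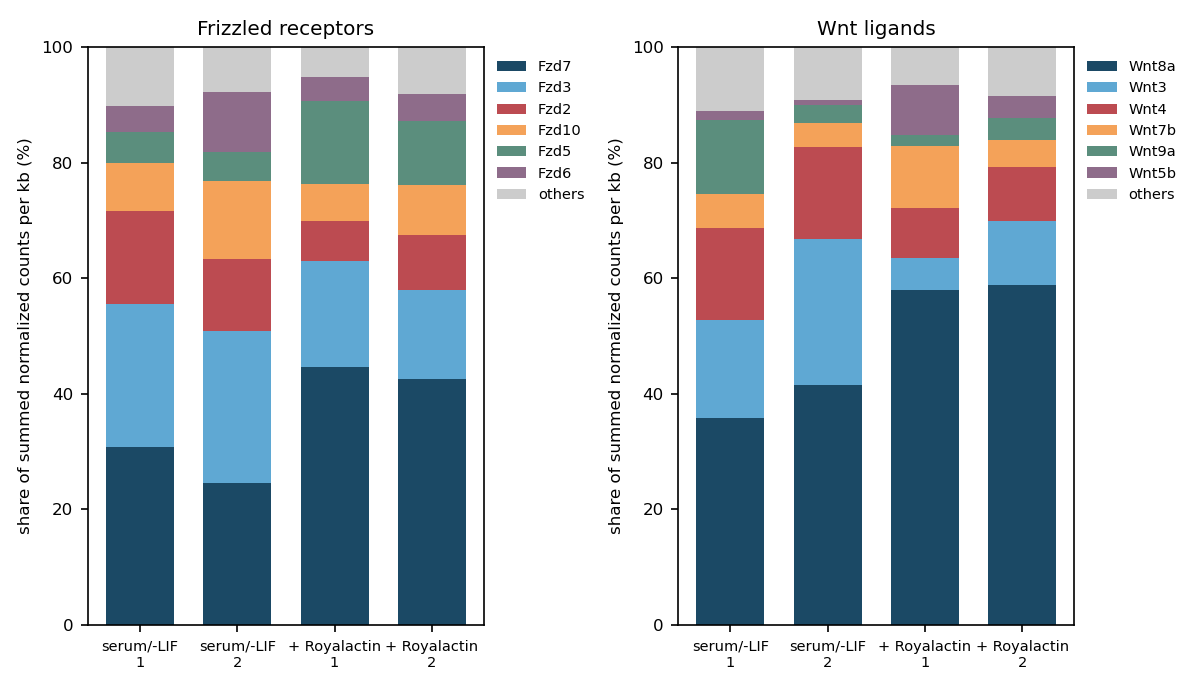
Share of each gene in the summed normalized counts per kilobase of exon of all Frizzled receptors (left) and of all Wnt ligands (right), in percent, one bar for each library. Fzd7 takes 24.6% to 30.7% in serum/-LIF and 42.6% to 44.7% with Royalactin, and Wnt8a takes 35.8% to 41.6% and 57.9% to 58.8% of the ligands.

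Fzd1 had 51 and 1 reads in serum/-LIF and 9 and 26 with Royalactin, so that 1 library decided its serum/-LIF level, and Fzd9 had 43 and 8 against 34 and 35 reads. For both the mean was lower with Royalactin (13.5 against 34.6 normalized counts for Fzd1 and 29.1 against 32.9 for Fzd9), whereas the fitted log2 fold changes were 0.22 and 0.35 because the low library weighs more on the log scale. Fzd8 overlapped between conditions (log2 fold change -0.66, limma adjusted p = 0.787).

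Lrp6, the co-receptor at the highest level of this group, had 1640 and 981 normalized counts in serum/-LIF and 1335 and 1162 with Royalactin. The Royalactin libraries lay inside the range of the serum/-LIF libraries. Its difference of -0.03 on the log2 scale had a 95% interval of -0.73 to 0.67 (limma adjusted p = 0.989), and it turned to 0.03 when libraries were scaled to their total without Rn45s. Lrp5 had 400 and 217 normalized counts against 165 and 236, overlapping as well (log2 fold change -0.58, limma adjusted p = 0.742). Per kilobase, Lrp6 exceeded Lrp5 in every library, by 2.16 and 2.38 times in serum/-LIF and 4.26 and 2.59 times with Royalactin.

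Of the 19 Wnt ligands, 6 were detected in serum/-LIF (Wnt3, Wnt4, Wnt6, Wnt7b, Wnt8a and Wnt9a) and 7 with Royalactin (Wnt3, Wnt4, Wnt5a, Wnt5b, Wnt7b, Wnt8a and Wnt9a), and 7 passed the filter for testing. All ligands together held 347 and 387 reads in serum/-LIF and 260 and 490 with Royalactin, where the Frizzled receptors together held 2552 to 4263 per library. Wnt3 (chromosome 11, 103635464 to 103679271), a ligand of the beta-catenin branch that the embryo needs for the primitive streak, had 84.3 and 114 normalized counts in serum/-LIF and 17.1 and 46.1 with Royalactin. Both Royalactin libraries were below both serum/-LIF libraries, though they differed from each other. The log2 fold change was -1.76 (95% interval -3.37 to -0.15, limma adjusted p = 0.476). Its reads numbered 63 and 110 in serum/-LIF and 17 and 67 with Royalactin.

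Wnt4, best known from kidney and gonad development, had 107 and 98.3 normalized counts in serum/-LIF and 37.2 and 52.3 with Royalactin. The groups did not overlap, and the log2 fold change was -1.20 (95% interval -2.56 to 0.17, limma adjusted p = 0.611). Wnt8a, a ligand of the gastrulating embryo, had 100 and 107 normalized counts in serum/-LIF and 103 and 137 with Royalactin. These values overlapped, and the interval of its log2 fold change of 0.20 ran from -0.93 to 1.32 (limma adjusted p = 0.941). Per kilobase Wnt8a was the highest ligand in every library, at 59.3 ± 2.56 in serum/-LIF and 68.6 ± 13.9 with Royalactin (SD, n = 2). Its share of the summed ligand level was 35.8% and 41.6% in serum/-LIF and 57.9% and 58.8% with Royalactin, while that of Wnt3 was 17.1% and 25.2% against 5.48% and 11.2%. The summed ligand level per kilobase was 161 and 147 in serum/-LIF and 101 and 134 with Royalactin.

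Wnt7b, a ligand studied in lung and placenta, overlapped between conditions with 26 to 48 reads per library (log2 fold change 0.11, limma adjusted p = 0.981). Wnt9a had 51 and 15 reads in serum/-LIF and 6 and 25 with Royalactin, and Wnt11, which acts largely without beta-catenin, had 1 and 17 against 0 and 32. In Wnt11 the 2 replicate 2 libraries were high and the 2 replicate 1 libraries low, in either condition. Its mean was higher with Royalactin (11.0 against 9.47 normalized counts) and its fitted log2 fold change was below 0 (-0.46, 95% interval -5.47 to 4.55), and 10.0% of its exon bases lie opposite exons of Gm8398.

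The 2 Wnt5 ligands, which act mainly on cell polarity and movement, had more reads with Royalactin at a low level. Wnt5a had 0 and 1 reads in serum/-LIF and 11 and 17 with Royalactin, below the filter for testing. Wnt5b had 5 and 3 reads in serum/-LIF and 23 and 19 with Royalactin, with a log2 fold change of 1.71 (95% interval -1.62 to 5.04, limma adjusted p = 0.790). Wnt6 went the other way, with 8 and 17 reads in serum/-LIF and 0 and 3 with Royalactin. In all 3 genes the conditions did not overlap, at counts where a few reads decide the value. Of all tested genes, 38.6% did not overlap. In Wnt5a, 4.58% of the exon bases lie opposite exons of the long noncoding Gm2670, and whether counting used the strand is not stated.

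Among the other ligands, Wnt1, Wnt3a and Wnt8b had 0 reads in all 4 libraries, which allows up to 3 reads per library. Reads were seen in 1 library only for Wnt2 (3 reads), Wnt9b (2), Wnt10b (6) and Wnt16 (11), each in serum/-LIF replicate 1, for Wnt10a in Royalactin replicate 1 (6) and for Wnt7a in Royalactin replicate 2 (13). Wnt2b had 11 and 0 reads in serum/-LIF and 10 and 0 with Royalactin. None of these was detected in both libraries of a condition. Such limits cover counting error alone, as PCR copies are not independent molecules.

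The secreted inhibitors were led by Sfrp1, which had 369 and 336 normalized counts in serum/-LIF and 623 and 527 with Royalactin. Its conditions did not overlap, with Royalactin the higher. The means were 353 ± 23.1 and 575 ± 67.9 (SD, n = 2), a difference of 0.70 on the log2 scale (95% interval -0.04 to 1.44, limma adjusted p = 0.573). Sfrp2 stayed within 153 to 166 normalized counts in all 4 libraries, and its log2 fold change of -0.05 had an interval from -1.03 to 0.93 (limma adjusted p = 0.983) and turned to 0.0030 when scaled to the total without Rn45s. The Sfrp1 level over that of Sfrp2, per kilobase, was 1.17 and 1.00 in serum/-LIF and 2.01 and 1.66 with Royalactin. Exons of Sfrp2 share 16.1% of their bases with the opposite-strand noncoding Gm16790. Sfrp4 had 54 and 51 reads in serum/-LIF and 26 and 133 with Royalactin, enclosing the serum/-LIF values. Sfrp5 had 20 reads in Royalactin replicate 1 and 0 in the other 3 libraries.

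Dickkopf genes were low throughout. Dkk3, a family member that binds Lrp6 weakly or not at all, had 6 and 2 reads in serum/-LIF and 28 and 39 with Royalactin, that is 8.02 and 2.07 against 28.2 and 26.8 normalized counts. The 2 Royalactin libraries were alike and above both others. Its log2 fold change of 2.44, the highest of the members, had a 95% interval from -0.63 to 5.50 (limma adjusted p = 0.655). In serum/-LIF no read (0 and 0) was found for Dkk1, the classical inhibitor of Lrp5 and Lrp6 and itself a target of beta-catenin, which had 37 and 3 with Royalactin, so that 1 library carried nearly all of its reads. Dkk2 had 11 and 5 against 15 and 5 reads, and Dkk4 had 0 and 0 against 2 and 1. Dkk1, Dkk2 and Dkk4 were below the filter and were not tested.

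Other genes of the pathway, taken from 4 lists, also gave no call in limma after Benjamini-Hochberg adjustment. Their counts at an unadjusted p under 0.05 are to be read against the 9.34% of all tested genes with such a p (4.76% higher and 4.58% lower). Among 28 other extracellular and membrane regulators, 17 were tested, with 1 higher and 1 lower at an unadjusted p under 0.05 and a median log2 fold change of -0.24. The highest log2 fold changes were those of Notum, a secreted enzyme that removes the Wnt lipid, with 22.7 and 0 normalized counts in serum/-LIF and 134 and 111 with Royalactin (4.66, limma adjusted p = 0.200), and of the Dickkopf receptor Kremen2 (0.39, adjusted p = 0.935). The lowest were those of Tspan12, a Fzd4 partner, with 61.5 and 62.1 against 7.04 and 13.8 (-2.53, limma adjusted p = 0.409), and of the glypican Gpc4 (-0.67, adjusted p = 0.696). Among the 28 genes that carry the signal in the cytoplasm and nucleus, 27 were tested, with 1 higher and 0 lower at an unadjusted p under 0.05 and a median of 0.14. There Dvl3 (1.20, limma adjusted p = 0.778) and the co-repressor Tle4 (1.00, limma adjusted p = 0.237) had the highest log2 fold changes. Tcf7l2 (-1.35, limma adjusted p = 0.644) and Bcl9 (-0.90, limma adjusted p = 0.658) had the lowest. Dvl3 overlapped between the conditions, with 143 and 8.28 normalized counts in serum/-LIF and 104 and 66.1 with Royalactin. Its low serum/-LIF replicate 2 weighs more on the log scale. The Tle4 values were 1264 and 1015 in serum/-LIF and 2620 and 1965 with Royalactin, with no overlap.

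Of 20 direct targets of beta-catenin, 15 were tested, with 1 higher and 2 lower at an unadjusted p under 0.05, a p reached by 9.34% of all tested genes, and a median of -0.24. Notum was again the highest, and Axin2, the target most often used as a readout of beta-catenin, had 116 and 63.1 normalized counts in serum/-LIF and 157 and 152 with Royalactin. Its libraries did not overlap, at 0.84 on the log2 scale (limma adjusted p = 0.680). Of the 15 tested targets, 2 lay above in this way and 5 below, where 19.7% and 18.9% of all tested genes did. At the low end, Cdx4 had 24.1 and 51.8 normalized counts in serum/-LIF and 0 in both Royalactin libraries (-5.18 on the log2 scale, limma adjusted p = 0.413). Cdx4 passed the filter only through its serum/-LIF values. Nkd2 was at -1.57 on the log2 scale (limma adjusted p = 0.663). Of 21 genes of the polarity branch, 20 were in the table and 19 were tested, with 0 higher and 1 lower at an unadjusted p under 0.05 and a median of -0.23. Vangl1 (0.81, limma adjusted p = 0.608) and Prickle1 (0.72, adjusted p = 0.820) were highest. Prickle3 (-4.10, limma adjusted p = 0.587) and the kinase gene Camk2d were lowest, the latter with 397 and 455 normalized counts against 137 and 143 (-1.60, limma adjusted p = 0.135). Prickle3 had 12.0 and 44.5 normalized counts in serum/-LIF and 1.01 and 0 with Royalactin. Like Cdx4, it passed the filter only through its serum/-LIF values. Some genes stand on more than one list.

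**Figure D5:**
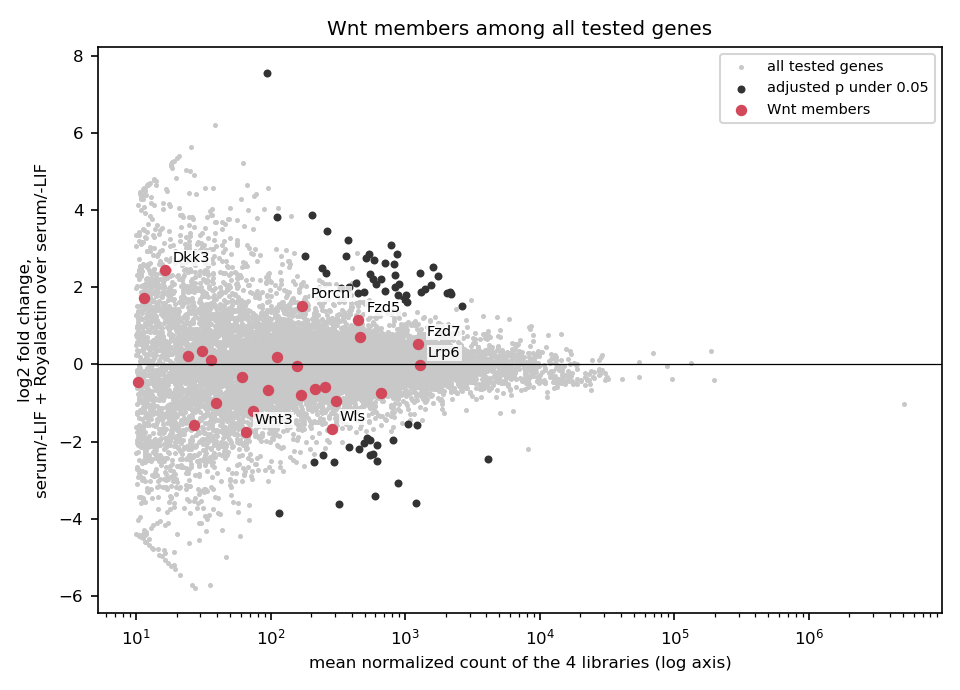
Log2 fold change (serum/-LIF + Royalactin over serum/-LIF) of all tested genes against their mean normalized count (log axis), with the 64 genes past an adjusted p of 0.05 in black and the 25 tested members in red. The members lie within the cloud of genes of like level, from -1.76 (Wnt3) to 2.44 (Dkk3).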

How the data were processed

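RNA-seq of 4 libraries (2 of serum/-LIF and 2 of serum/-LIF + Royalactin J1 mESCs) was used. ATAC-seq was left out. Reads had been mapped by the authors to mm9 (Tophat), summed over genes (HTSeq-count) and scaled with DESeq. The deposited values are this scaled signal. The annotation and strand setting of the counting are not given in the sources used here. Reads were recovered as the value divided by what 1 read is worth in its library (its step). All values came out whole in this way, but with a step close to 1, as in serum/-LIF + Royalactin replicate 1, low scaled values also lie near whole numbers, so the recovery is not independently checked there and no count model was used.

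Tests used limma 3.58.1 in R 4.3.3 (lmFit, eBayes with a trend, two-sided, Benjamini-Hochberg adjustment) on log2(normalized count + 1) for genes with a mean of at least 10. The p-values rest on the spread between these libraries, and limma draws the variance of each gene toward a trend over all genes (11.5 prior degrees of freedom). Without the trend the unadjusted limma p was 0.117 for Fzd3 and 0.0999 for Fzd2, against 0.0454 and 0.0419 with it. In that fit 7 members had an unadjusted p under 0.05. Intervals are 95%. The steps were tested on simulated counts. Alternatives were other pseudocounts (0.1 and 5), filters, scalings, no variance trend, a replicate block, a lowess correction for GC content and exon length (span 0.3), and each library left out. Exon lengths and positions come from GENCODE vM1 (mm9), for 22013 of 23366 symbols, and 75-base exon tiles were mapped with minimap2 2.31-r1302. Promoters come from RefSeq (GRCm38.p6). Members, lists and the rule for naming were chosen with earlier results of these data known. Every member is named. Other pathway genes are named when past an adjusted p of 0.05, and otherwise as the 2 largest changes in each direction of a list.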

Additional observations from a re-analysis of the deposited data

How the results depend on the processing

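No member passed an adjusted p of 0.05 in limma with other pseudocounts, filters or scalings, without the trend, or with any 1 library left out. The fits with a library left out called 0 of all genes as well, so they say nothing on single members. The number called was 1 with the replicate block (Wls, adjusted p = 0.00642), 1 with the GC content and length correction (Wls), and 4 with both (Wls, Porcn, Fzd5 and Fzd2, adjusted p = 0.000657, 0.0214, 0.0112 and 0.0467). Deviations of same-numbered replicates had a Pearson correlation of 0.0851 across genes, so the numbers were not taken to pair the libraries. The block leaves 1 residual degree of freedom. With it the prior degrees of freedom in limma were infinite, with or without the GC content and length correction. Each gene then took the variance of the trend, so the p-values with the block do not rest on the gene's own spread. Members with an unadjusted p under 0.05, 6 as reported, ranged from 1, without serum/-LIF + Royalactin replicate 1, to 6 when 1 library was left out, with 3 without serum/-LIF + Royalactin replicate 2. All genes called, 64 as reported, numbered 32 at pseudocount 0.1, 34 when every gene above 0 entered, 99 at a minimum mean of 50, 391 (3.01%) with the block, 0 in limma without the trend (1135 at an unadjusted p under 0.05), 256 with the GC content and length correction and 799 (6.15%) with both. Among other pathway genes the block called Notum, Tle4 and Camk2d (1 of the extracellular regulators, 1 of the transducers, 1 of the targets and 1 of the polarity genes), the GC content and length correction Tle4 (1 transducer) and Camk2d (1 polarity gene), and both together these 3 and Tnfrsf19 (1, 1, 2 and 1 by list). The median over tested members, -0.32, was -0.24 over the 38 members above 0, -0.58 over the 17 at a minimum mean of 50 and -0.27 scaled to the total without Rn45s, and ran from -0.55 to -0.10 with a library left out (-0.10 without serum/-LIF replicate 1, -0.13 without serum/-LIF + Royalactin replicate 1). The cause was not tested. Detection kept within 20 to 27 members in serum/-LIF and 23 to 28 with Royalactin under the looser and stricter rules. Of the 25 tested members, 17 kept their direction under every alternative. Directions turned for Fzd1 with a pseudocount of 5 (-0.23), for Lrp6 (0.029) and Sfrp2 (0.0030) scaled to the total without Rn45s, and with a library left out for Fzd1 (-2.33 to 2.76), Fzd9 (-0.98 to 1.68), Lrp6 (-0.40 to 0.34), Sfrp4 (-1.21 to 0.56), Wnt11 (-2.72 to 1.80), Wnt7b (-0.31 to 0.52) and Wnt8a (-0.011 to 0.40).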
